A study of Saccharomyces cerevisiae with 31 samples.

Results

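Budding yeast growing on glucose represses a set of genes for life on other carbon sources. This account follows 10 of them, chosen by name: the glyoxylate cycle genes ICL1, MLS1, MDH2 and CIT2, the gluconeogenesis genes PCK1 and FBP1, the acetate activation gene ACS1, and the transporter genes ADY2, JEN1 and SFC1. They are 10 of the 5668 genes that entered the comparison of the spt6-1004 mutant with wild type (WT), if all 10 entered it. Names were matched to RefSeq genes of assembly R64, where all 10 were found. The genes were picked with earlier results of these data known, so the count of them listed is a description, not a test.

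The study measured RNA in *Saccharomyces cerevisiae* with 1 of 3 SPT6 alleles (spt6-1004, spt6-S8A, spt6-S8E) and in WT, with 3 libraries for each of the 4 genotypes. SPT6 encodes a histone chaperone that travels with RNA polymerase II. The series concerns its phosphorylation by casein kinase 2. The spt6-1004 allele is an internal deletion widely used as a temperature-sensitive mutant, spt6-S8A has alanine in place of serines and spt6-S8E has glutamate there. All 4 genotypes were grown in YPD, a rich medium with glucose, at 30 °C and were harvested at an optical density of 1. No treatment other than the allele separates the groups, and the labels do not tie libraries to separate cultures. The p-values therefore measure only the spread between these samples, which may be technical. Whole cultures were measured, so a small change in every cell and a larger one in a fraction of the cells cannot be told apart. Another 19 chromatin samples were not analysed here.

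The glyoxylate cycle lets yeast build sugar from acetate or ethanol. Isocitrate lyase and malate synthase bypass the steps of the tricarboxylic acid cycle that release carbon dioxide, malate dehydrogenase turns the malate into oxaloacetate, and phosphoenolpyruvate carboxykinase and fructose-1,6-bisphosphatase carry the carbon up to hexose phosphate. On glucose many of these genes are held off, directly or not, by the repressor Mig1 with its Tup1 and Cyc8 partners. When glucose runs out, the Snf1 kinase and the activators Cat8, Sip4 and Adr1 switch them on, and after glucose returns the GID ubiquitin ligase has several of the enzymes destroyed.

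In spt6-1004, 5 of the 10 genes were listed as higher than in WT and 0 as lower per the authors' deposited table. They were MLS1, JEN1, ICL1, MDH2 and FBP1, by 2.82-fold to 6.49-fold. CIT2, PCK1, ACS1, ADY2 and SFC1 were not listed there. Of all 5668 genes adjusted, 319 or 5.63% were listed higher, 6.62% were listed lower and 12.2% were listed in either direction. No gene of the 10 was listed for spt6-S8A or spt6-S8E, tables whose reach is limited as set out further on.

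A listed gene is one with a Benjamini-Hochberg adjusted p under 0.05 in the authors' DESeq2 comparison. Each value is the authors' log2 fold change of the mutant over WT with its standard error (SE). No value per library and no depth was used here, since the deposited tables hold neither. Level is given as base mean, the mean over all 12 RNA libraries in a unit that the sources used here do not give. Whether base mean is scaled to gene length is not known, so it does not rank one gene's RNA against another's.

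Of the 4 glyoxylate cycle genes, 3 were listed, all higher. ICL1 (YER065C) encodes isocitrate lyase, which splits isocitrate into succinate and glyoxylate, and lies on chromosome V from 285241 to 286914. Its log2 fold change in spt6-1004 was 2.35 (SE 0.48, adjusted p = 2.69e-05, DESeq2) per the authors' deposited table, a 5.09-fold increase with a 95% interval of 2.65 to 9.76. MLS1 (YNL117W) encodes malate synthase, which joins glyoxylate to acetyl-CoA, on chromosome XIV from 406358 to 408022. It stood at 2.70 (SE 0.53, adjusted p = 1.17e-05, DESeq2) per the authors' deposited table, which is 6.49-fold (95% interval 3.15 to 13.4) and the largest value of the 5.

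MDH2 (YOL126C), on chromosome XV from 81787 to 82920, encodes the cytosolic malate dehydrogenase. The authors' deposited table put it at 2.15 (SE 0.51, adjusted p = 0.000475, DESeq2), or 4.44-fold with a 95% interval of 2.22 to 8.89. The genes for the 3 enzymes that lead from isocitrate to oxaloacetate by way of glyoxylate were thus all higher in spt6-1004, and their intervals overlap one another. CIT2 (YCR005C), the peroxisomal citrate synthase gene at 120946 to 122328 on chromosome III, was not listed.

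Of the gluconeogenesis pair, FBP1 was listed and PCK1 was not. FBP1 (YLR377C) encodes fructose-1,6-bisphosphatase and lies on chromosome XII from 873746 to 874792. Per the authors' deposited table it was at 1.498 (SE 0.51, adjusted p = 0.031, DESeq2), a 2.82-fold increase with a 95% interval of 1.41 to 5.65. It had the smallest change and the largest adjusted p of the 5 listed genes. PCK1 (YKR097W), on chromosome XI from 631152 to 632801, encodes phosphoenolpyruvate carboxykinase.

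Among the transporters JEN1 (YKL217W), which carries lactate and pyruvate into the cell, was listed. Its gene spans 22234 to 24084 on chromosome XI, and its log2 fold change was 2.39 (SE 0.53, adjusted p = 0.000158, DESeq2) per the authors' deposited table, or 5.23-fold with a 95% interval of 2.54 to 10.8. ADY2 (YCR010C), an acetate transporter gene on chromosome III from 132273 to 133124, was not listed. Neither was SFC1 (YJR095W) on chromosome X from 609773 to 610741, whose product exchanges succinate for fumarate across the mitochondrial inner membrane, nor ACS1 (YAL054C) on chromosome I from 42881 to 45022, which encodes the acetyl-CoA synthetase that is repressed by glucose.

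**Figure D1:**
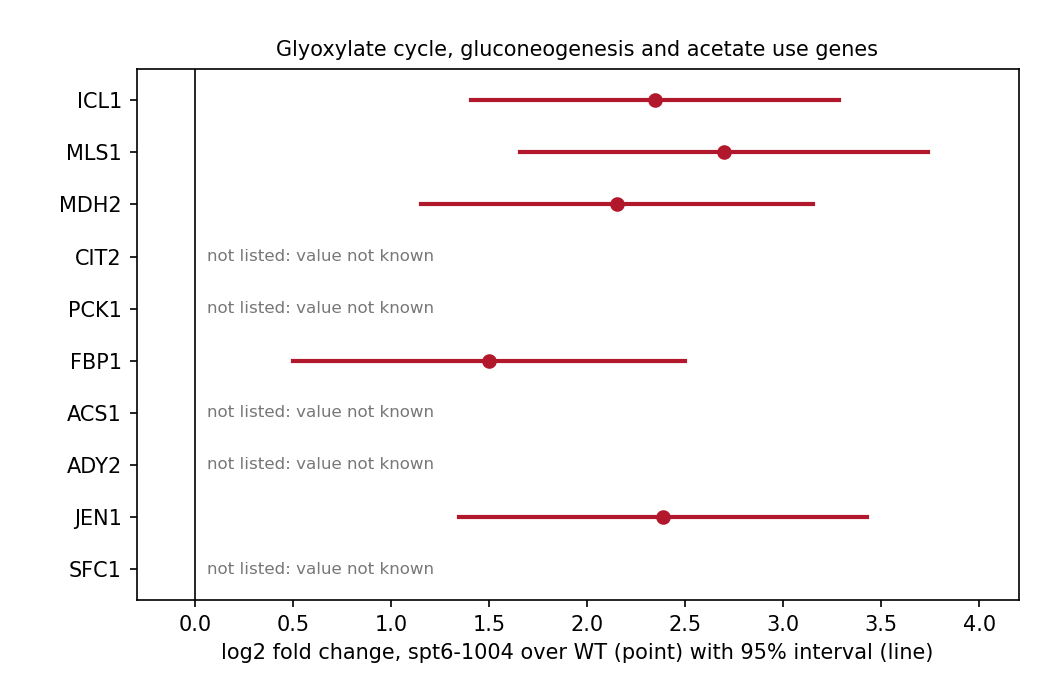
The authors' log2 fold change of spt6-1004 over WT for each of the 10 genes, with its 95% interval from the authors' standard error. MLS1, JEN1, ICL1 and MDH2 lie between 2.15 and 2.70, FBP1 lies at 1.498, and the other 5 genes have no deposited value.

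A gene that is not listed is not shown to be unchanged. An adjusted gene outside the spt6-1004 list had a p of at least 0.00613, with a Wald statistic no larger than 2.74 in size. With standard errors like those of the 5 listed genes, CIT2, PCK1, ACS1, ADY2 and SFC1 could have had log2 fold changes of up to 1.31 to 1.46 in either direction, or 2.48-fold to 2.75-fold, without being listed. FBP1, at 1.498 per the authors' deposited table, lies just above that range. The limit is approximate and applies to log2 fold changes as the authors' fit gives them. It does not hold for a gene that was left out of the adjustment.

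All 5 listed genes had low base means. The base mean per the authors' deposited table was 6.83 for ICL1, 4.67 for MDH2, 2.67 for MLS1, 2.25 for JEN1 and 1.25 for FBP1, whereas the 319 genes listed higher had a median of 12.4 and all 694 listed genes 21.2. Summed over the 12 libraries these levels come to 82 for ICL1, 56 for MDH2, 32 for MLS1, 27 for JEN1 and 15 for FBP1. A sum and a fold change together bound the WT level, because 3 WT and 3 spt6-1004 libraries cannot hold more than the whole sum. The WT mean was at most 4.49 for ICL1, 3.43 for MDH2, 1.44 for JEN1, 1.42 for MLS1 and 1.31 for FBP1, in units of base mean, if the libraries are on one scale and the authors' fold changes are not overstated. The genes were chosen as ones repressed by glucose, and levels in another carbon source were not measured.

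**Figure D2:**
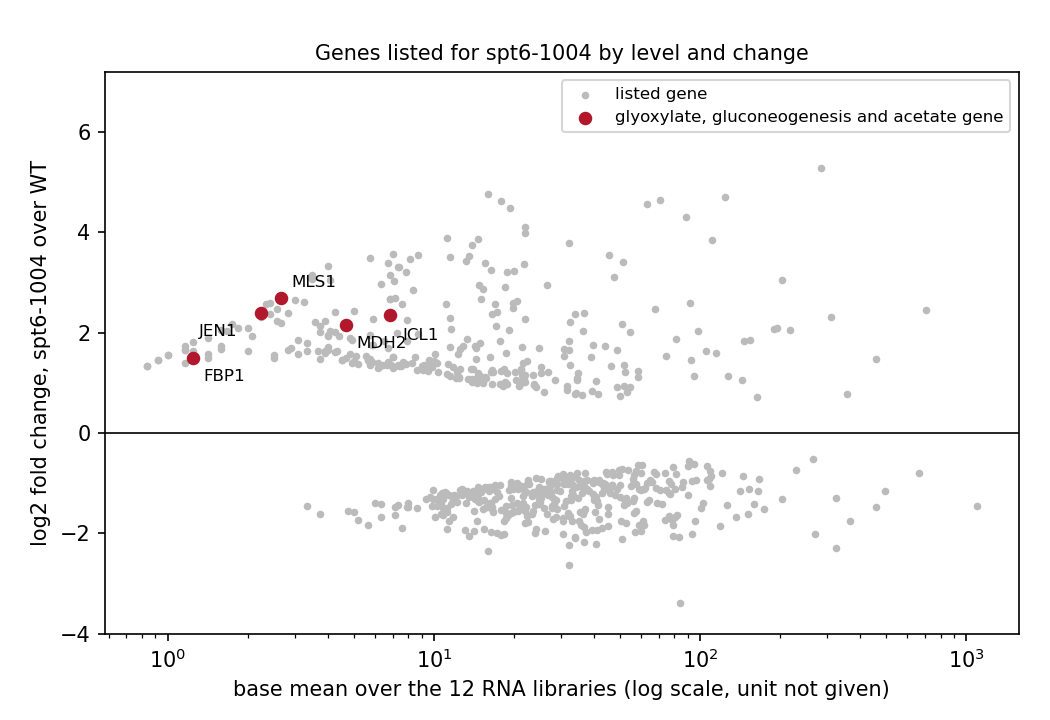
Each point is 1 of the 694 genes listed for spt6-1004, with base mean over the 12 RNA libraries on a log axis and the log2 fold change of spt6-1004 over WT on the other. The 5 named genes sit among the listed genes with the lowest base means, at base means of 1.25 to 6.83, where points above 0 far outnumber those below.

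Low level bears on how the changes read. Between base means of 1.25 and 6.83 the authors' deposited table lists 107 genes, 98 of them higher and 9 lower, so a listed gene at this level was mostly an increase whatever its function. The median log2 fold change was 2.35 for the 5 genes described here. It was 1.86 for those 98 and 1.64 for all 319 genes listed higher, and both of these sets include the 5. The values are given as a description with no test. Among the 41 other listed genes within 1.5-fold of its base mean, 4 had a larger log2 fold change than MLS1. For JEN1 it was 7 of 29, for ICL1 17 of 94 and for MDH2 20 of 79. FBP1 lay at the other end, with 15 of 19 such genes above it. The part that level plays in the listing was not tested.

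The fold changes of MLS1, JEN1 and FBP1 look shrunken towards 0. Counting error alone would give an unshrunken log2 fold change an SE of at least 0.75 for MLS1, 0.76 for JEN1 and 0.85 for FBP1 if base means come from whole reads. The authors' deposited SE was lower, at 0.53, 0.53 and 0.51 in that order of genes. The SE of ICL1 and MDH2 exceeded this minimum, which was 0.43 for ICL1 and 0.50 for MDH2. That does not show their fold changes to be unshrunken. IDP2 and GID10, described below, also fell under their minimum, with an SE of 0.54 against 0.60 and 0.49 against 0.90. The printed increases of all these genes may understate the ratio of the means, which no deposited value tests.

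Of 9 isozyme and paralog genes, 1 was listed higher and 1 lower per the authors' deposited table, where 12.2% of all genes were listed in either direction. CIT1, which encodes the mitochondrial citrate synthase, was at 1.70 (SE 0.32, adjusted p = 2.73e-06, DESeq2) per the authors' deposited table, while its peroxisomal counterpart CIT2 was not listed. ACS2, the acetyl-CoA synthetase gene that is used on glucose, was at -1.72 (SE 0.33, adjusted p = 5.77e-06, DESeq2) per the authors' deposited table, while ACS1 was not listed. The malate dehydrogenase genes MDH1 and MDH3, which act in mitochondria and peroxisomes, were not listed, and nor were ICL2, the malate synthase gene DAL7, CIT3, ATO2 or ATO3. Differences between isozymes were not tested. The lists of genes around the pathway, here and below, were chosen with earlier results of these data known. Their listed shares are therefore a description, not a test. MLS1 and DAL7, and CIT1 and CIT2, are similar in sequence, and how reads that fit both copies were shared was not stated in the sources.

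For spt6-1004 the authors' deposited table had 6 of 16 genes for other or related steps higher, 37.5%, and 2 lower, 12.5%. Of all genes, 5.63% were listed higher and 6.62% lower. With a list chosen this way, the difference in shares is no test. The 8 listed genes ranged on the log2 scale between -1.41 and 2.96. ADH2, the alcohol dehydrogenase gene that oxidises ethanol, led them at 2.96 (SE 0.42) per the authors' deposited table. CAT2, whose product moves acetyl groups onto carnitine, stood at 1.95 (SE 0.52) per the authors' deposited table. IDP2, the cytosolic isocitrate dehydrogenase gene, was at 1.49 (SE 0.54, adjusted p = 0.0448, DESeq2) per the authors' deposited table. PCS60, a peroxisomal CoA ligase gene, was at 1.34, the aconitase gene ACO1 at 0.93 and the mitochondrial aldehyde dehydrogenase gene ALD4 at 0.76 per the authors' deposited table. IDP2 and CAT2 had base means of 2.5 and 4, as low as those of the glyoxylate genes, whereas ACO1 had 51.9 and PCS60 46.1, per the authors' deposited table.

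The 2 lower genes of this group feed acetate and oxaloacetate on glucose. ALD6, the cytosolic aldehyde dehydrogenase gene that supplies acetate in fermenting cells, was at -1.41 (SE 0.25), and PYC1, a pyruvate carboxylase gene, was at -0.78 (SE 0.23), per the authors' deposited table. The isozyme PYC2 was not listed. How reads that fit both PYC1 and PYC2, or ADH2 and another alcohol dehydrogenase gene, were shared was not stated in the sources. ALD6 and ALD4 thus moved in opposite directions in spt6-1004, each past the authors' threshold. ALD6 passed it widely (adjusted p = 3.87e-07, DESeq2) and ALD4 narrowly (adjusted p = 0.0438, DESeq2), per the authors' deposited table.

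Several glycolytic steps run in reverse during gluconeogenesis. Of 14 genes for glycolytic steps and their control, 8 or 57.1% were listed lower, 1 was listed higher and 5 were not listed for spt6-1004 per the authors' deposited table, beside 6.62% of all genes listed lower. The 9 listed genes had a median of -1.05 on the log2 scale. This list too was chosen with earlier results known, so its share is no test. Opposite FBP1 stand the phosphofructokinase subunit genes PFK1 at -1.05 (SE 0.21) and PFK2 at -0.91 (SE 0.17) per the authors' deposited table. CDC19, the pyruvate kinase gene that opposes PCK1 and the pyruvate carboxylases, was at -1.15 (SE 0.16) per the authors' deposited table. Of the steps that run both ways, FBA1 was at -1.47, PGK1 at -1.32, GPM1 at -0.91 and PGI1 at -0.86 per the authors' deposited table. The TDH genes, for glyceraldehyde-3-phosphate dehydrogenase, are not on this list, so it does not cover every glycolytic step. The enolase genes split, with ENO1 at 0.91 and ENO2 at -1.75 per the authors' deposited table, but they are near-identical copies that can share reads and are uncertain. PYK2, PFK26, PFK27, FBP26 and TPI1 were not listed. All 9 listed glycolytic genes had base means of 54.8 to 495, far above those of the glyoxylate genes, and the part of level in this split was not tested.

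**Figure D3:**
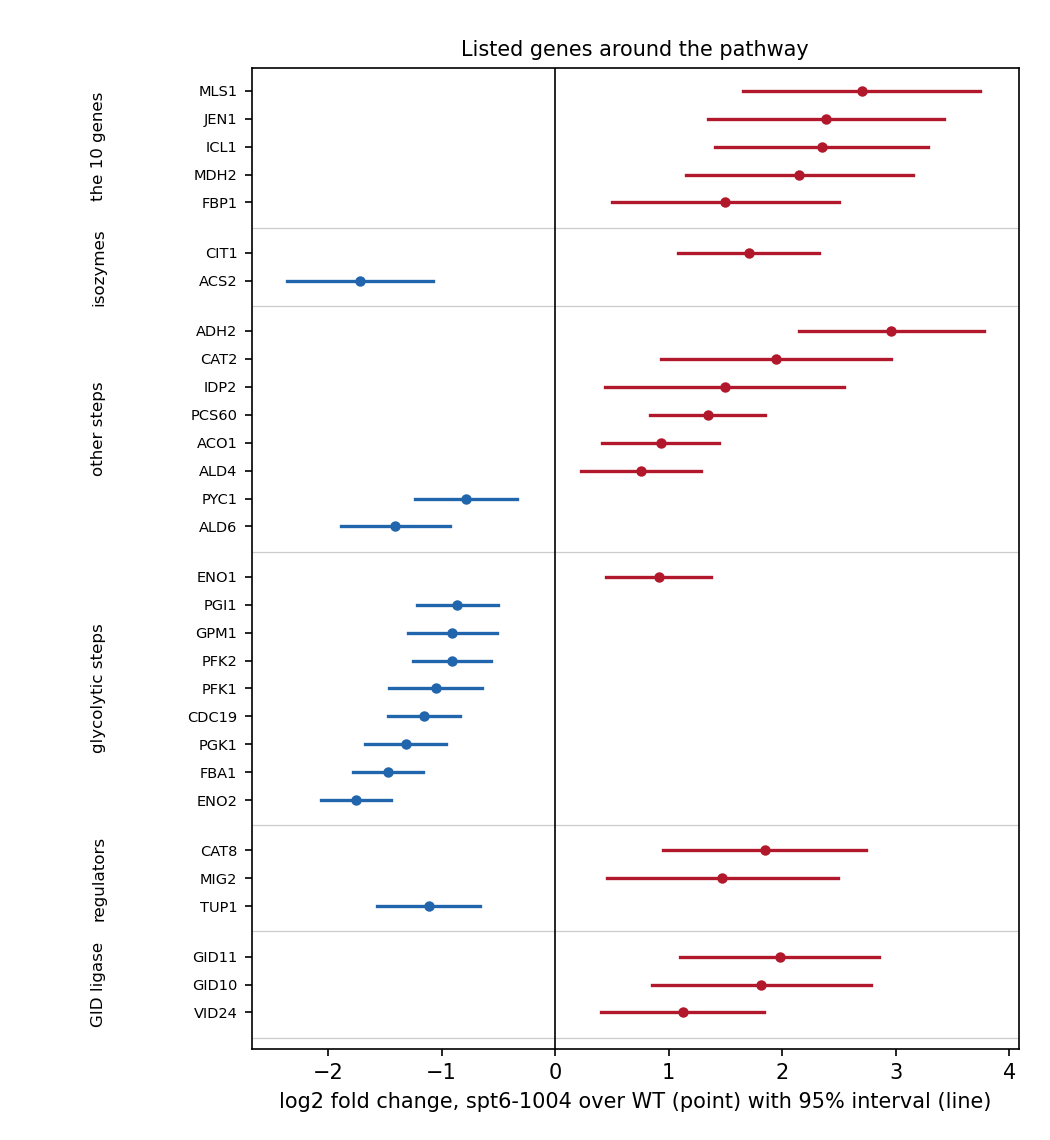
Log2 fold changes of spt6-1004 over WT with 95% intervals for the listed genes among the 10 and for those of 5 lists around them. Red marks values above 0 and blue values below 0. The 5 glyoxylate, gluconeogenesis and transporter genes and most other steps lie above 0, 8 of 9 listed glycolytic genes lie below, and genes without a deposited value are not drawn.

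Of 21 regulators of glucose repression, the authors' deposited table had 2 higher and 1 lower for spt6-1004. That is 14.3%, near the 12.2% of all genes listed in either direction. CAT8, which encodes an activator of glucose-repressed genes, was at 1.85 (SE 0.46, adjusted p = 0.000915, DESeq2) per the authors' deposited table, 3.59-fold. Whether the CAT8 change bears on the genes it activates was not tested. MIG2, a repressor gene related to MIG1, was at 1.47 (SE 0.52, adjusted p = 0.0381, DESeq2) per the authors' deposited table. TUP1, the corepressor gene, was lower at -1.11 (SE 0.23, adjusted p = 4.14e-05, DESeq2) per the authors' deposited table, 2.16-fold below WT. Base means were low for CAT8 at 7.92 and MIG2 at 3.75, against 61.75 for TUP1, per the authors' deposited table. The part of level in these directions was not tested. The activator genes SIP4, ADR1, RDS2, ERT1 and HAP4, the repressor genes MIG1, MIG3 and CYC8, and the kinase genes SNF1 and SNF4 were among the 18 not listed.

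The GID ubiquitin ligase had 3 of 10 genes higher and 0 lower for spt6-1004 per the authors' deposited table, beside 5.63% and 6.62% of all genes. They all encode substrate receptors. VID24, whose product recognises gluconeogenic enzymes such as Fbp1, Icl1 and Mdh2, was at 1.12 (SE 0.36), GID10 at 1.82 (SE 0.49) and GID11 at 1.98 (SE 0.45), per the authors' deposited table. The other 7 genes of this list, among them RMD5 and FYV10 of the ligase core, were not listed. GID10 had a base mean of 1.25, the same as FBP1, GID11 had 8.75 and VID24 had 15.6, per the authors' deposited table.

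A sense total over a gene can hold transcripts that start in a neighbour on the same strand. None of the 10 genes overlapped a neighbouring protein-coding gene in the annotation, and the smallest gap was 161 bases. Of the 10 genes flanking the 5 listed ones, 2 were themselves listed, both lower, and 8 have no value, where 12.2% of all genes were listed: RPL25 beside MDH2 at -1.76 and SEC61 upstream of FBP1 at -1.30, per the authors' deposited table. SEC61 lies on the same strand as FBP1, 943 bases from it. SFC1 has the strongest neighbour, YJR096W, which starts 453 bases beyond its end on the same strand and was at 3.25 (SE 0.41, adjusted p = 1.80e-13, DESeq2) per the authors' deposited table. RPL43B on the other side of SFC1 was at -1.32 per the authors' deposited table. Whole-gene totals do not tell full-length transcripts from ones that start inside a gene.

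The casein kinase 2 site mutants gave no value for any of the 10 genes. For spt6-S8A the authors' deposited table listed 23 of 431 genes adjusted, 5.34%. If those 431 are the genes above a minimum base mean, none of the 5 genes listed for spt6-1004 was among them. The spt6-1004 table alone holds 431 genes with a base mean of 15.4 or more, so any gene below that level falls outside, and the highest of the 5 is ICL1 at 6.83, per the authors' deposited table. The absence of ICL1, MLS1, MDH2, FBP1 and JEN1 from the spt6-S8A list is then no measurement. Of the 70 genes around the pathway, PCS60 at 1.25 (SE 0.26, adjusted p = 0.000266, DESeq2) and ALD6 at -0.76 (SE 0.23, adjusted p = 0.039, DESeq2) were listed for spt6-S8A per the authors' deposited table. Both have base means above the lowest listed one, 32.6. Their spt6-1004 values were 1.34 for PCS60 and -1.41 for ALD6 per the authors' deposited table, and the comparisons share the WT libraries.

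For spt6-S8E 1 of 5668 genes was listed, 0.0176%. An adjusted gene outside that list had a Wald statistic no larger than 4.29 in size. With the SE that each gene had in spt6-1004, the log2 fold change in spt6-S8E was at most about 2.06 for ICL1, 2.28 for MLS1, 2.19 for MDH2, 2.19 for FBP1 and 2.28 for JEN1. These limits lie 0.29 below the spt6-1004 value for ICL1, and they also lie below it for MLS1 and JEN1, by 0.42 and 0.11 on the log2 scale. For MDH2 and FBP1 the limit is above the spt6-1004 value, so an equal change in spt6-S8E would not have been listed. The limits assume an equal SE in both mutants and apply to log2 fold changes as the authors' fit gives them. Over the 23 genes listed for spt6-S8A and spt6-1004, with base means of 32.6 or more, the ratio of the SE in spt6-S8A to that in spt6-1004 was 0.87 to 1.09. At the highest ratio, a setting chosen after seeing the data, the limit would be 2.48 for JEN1, above its spt6-1004 value, 2.24 for ICL1 and 2.49 for MLS1, both still below. Whether any of the 5 genes differed between mutants was not tested, because each has 1 deposited value.

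**Figure D4:**
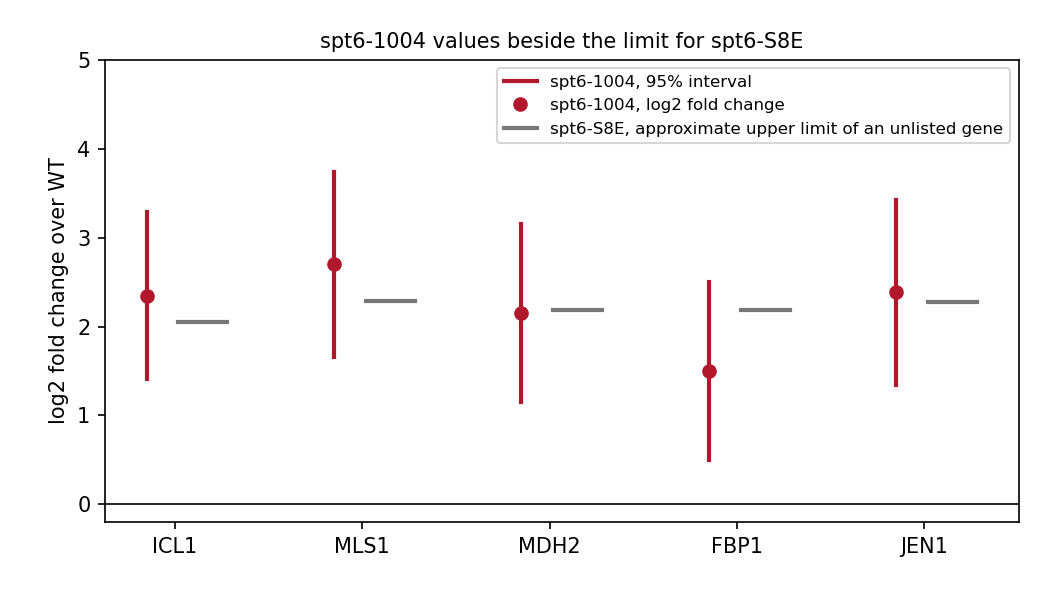
For each gene listed in spt6-1004, the red point and line give its log2 fold change over WT with the 95% interval, and the grey bar to its right gives the approximate upper limit in spt6-S8E, where the gene was not listed. The bars lie at 2.06 to 2.28, inside every spt6-1004 interval shown.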

How the data were processed

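RNA was ribosome-depleted and sequenced as stranded paired-end libraries with ERCC spike-ins, per the labels' protocols; whether the spike-ins set the scaling was not stated in the sources. The submitters' processing notes name build sacCer3, DESeq2 1.14.1 and, in no stated role, Salmon 0.8.1, STAR 2.5.2b, SAMtools 1.3.1, bedtools 2.26 and cutadapt 1.10. The authors' deposited tables hold, per the file headers, base means (a signal), log2 fold changes with standard errors, the Wald statistic (a score) and p-values with their adjusted p-values, for genes at an adjusted p under 0.05 alone. They carry no value per library, so depth is unknown.

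The number of genes adjusted was worked back from the Benjamini-Hochberg formula, and it rebuilt the adjusted p of 694, 23 and 1 listed genes. The step was checked on data simulated with 5668 genes, not with 431 genes or with 1 listed gene. For spt6-S8E the number came from its 1 listed gene alone, so rebuilding that gene is no check. Base means times 12 were whole numbers in every listed gene, with a tolerance of 1e-06. Whole sums are what a fit without further scaling between libraries would give. Whether the values were scaled before the fit is not known. If they were not, differences in depth between libraries may enter the fold changes, the WT bounds and the counting minima, which was not tested. Intervals are 95% normal intervals from the deposited errors, around log2 fold changes as the authors' fit gives them. Limits for unlisted genes, bounds on WT means and counting minima of errors follow from these values. Neighbours came from RefSeq R64, with strand read from the systematic name; 70 of 70 context genes matched. No sequence was used here. Python 3.11.15, pandas 2.3.3 and scipy 1.17.1 were used.

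The 10 genes and the 5 lists around them were chosen with earlier results of these data known. All 10, every listed gene of those lists and every listed neighbour are named. The 1.5-fold window on base mean was set after seeing the data. Alternatives were a stricter adjusted p, a minimum change, Bonferroni adjustment, a base mean minimum, larger errors and another number of genes adjusted. The planned test of a gene between mutants had no gene to run on, and promoter motifs and protein comparisons were not run.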

Additional observations from a re-analysis of the deposited data

How the results depend on the processing

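The count of 5 genes listed higher in spt6-1004 was 4 at an adjusted p under 0.01, which FBP1 misses, and 5 where the log2 fold change had to reach 1. Under Bonferroni adjustment over the 5668 genes it was 3 (ICL1, MLS1 and JEN1), and at a base mean of at least 10 it was 0, because all 5 lie under that level. The counts of 0 listed lower in spt6-1004 and 0 listed in spt6-S8A and in spt6-S8E were 0 under each of these settings, as they must be in tables that hold listed genes alone; what an unadjusted p would give is not known. With the standard error taken as 1.5 times larger, 2 of the 5 stayed under 0.05, ICL1 (adjusted p = 0.0306, DESeq2 values) and MLS1 (0.0216), and with all 6477 annotated genes as the number adjusted all 5 did. In a setting added after seeing the data, errors larger by the highest ratio seen between mutants moved the spt6-S8E limit of JEN1 to 2.48, above its spt6-1004 value. FBP1 is the least firm, with a range of adjusted p from 0.031 to 1 over these settings. No paired analysis was possible because the tables hold no value per library, and for the same reason no replicate could be left out and no correlated-error setting between mutants was run. Low base means and unknown depth limit all values of the 5 genes.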
